A study of Arabidopsis with 12 samples.

Results

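Class III peroxidases of Arabidopsis thaliana were followed across Fe supply and across the loss of PAD4. A locus was counted when its annotation text named a peroxidase precursor, when it held 1 gene, and when it reached 1 FPKM in at least 3 of 12 libraries. FPKM scales the fragments of a gene by its length and by the mapped fragments of the library. The loci were thus chosen by their level in these libraries as well as by annotation. The annotation text marked 72 loci of 28693, and 46 of them met the rule. RefSeq names 2 of the 46, TL29 and APX6, as ascorbate peroxidases, which are not class III enzymes, so that 44 remain without them. They are included below because the rule includes them. RefSeq gives 14 of the 46 a gene name, and the others are called by their locus identifier.

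Class III peroxidases are secreted heme enzymes found only in plants, where they form a large gene family. In the cell wall they use hydrogen peroxide to oxidise phenolic compounds, which couples monolignols into lignin and cross-links wall proteins and ferulates. They can also produce reactive oxygen species, and several members contribute to the oxidative burst of the apoplast that follows recognition of a pathogen. Their heme holds Fe, so that the enzymes themselves are consumers of this nutrient.

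Seedlings of the Col-0 wild type (WT) and of pad4, a mutant in the immune regulator PAD4, which resembles a lipase and works with EDS1 ahead of salicylic acid, had been grown at 24 °C under 16 h of light and 8 h of dark. Each genotype had been kept with or without Fe for 7 d, and each of the 4 groups held 3 libraries: pad4 labelled −Fe, WT labelled −Fe, pad4 labelled +Fe and WT labelled +Fe. The labels call the tissue shoot in a sample field, leaves together with roots in the protocol and whole seedlings in the design text. They do not say whether the libraries of a group came from separate cultures, so p-values measure only the spread between these libraries, which may be technical.

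PAD4 itself averaged 11.1 and 12.6 FPKM in pad4 libraries labelled −Fe and +Fe, against 19.6 and 20.9 FPKM in the matching WT libraries. The Fe labels went against the Fe-status genes in all 12 libraries. The regulator bHLH100, which plants switch on under Fe deficiency, was at 0.122 to 0.666 FPKM in the −Fe-labelled libraries, against 976 to 1137 FPKM in those labelled +Fe. The Fe store FER1, which rises with Fe, was at 271 to 333 FPKM in the −Fe-labelled libraries, against 10.3 to 11.8 FPKM in those labelled +Fe. Every Fe direction below is therefore given by the label alone, as libraries labelled −Fe over libraries labelled +Fe. Depth could be had only relative to WT labelled +Fe replicate 1, and was 0.566 to 1 times that library's. No absolute depth is known. Libraries labelled −Fe of both genotypes, more so pad4, also had a higher sum of 7 root hair markers, of which PRP3 was the largest part. The sum of 7 endodermis markers was instead lower in WT labelled −Fe than in WT labelled +Fe, and overlapped between the labels in pad4. The values of the root hair and endodermis sums stand beside the loci concerned. The sum of 3 root meristem markers was 1.69 to 2.09 FPKM in WT labelled −Fe, against 0.449 to 0.955 FPKM in WT labelled +Fe. In pad4 the meristem sum overlapped between the labels, at 0.955 to 2.05 FPKM under −Fe and 0.274 to 1.07 FPKM under +Fe. Another feature was that 4 libraries deviated from their groups together (WT labelled +Fe replicate 2, WT labelled −Fe replicate 2, pad4 labelled +Fe replicate 2 and pad4 labelled −Fe replicate 3), with correlations of 0.41 to 0.51 between their deviations. Without these 4 libraries the counts of called peroxidase loci below were 39 for the Fe label in pad4 and 36 in WT, 25 for the genotype under the −Fe label and 15 under the +Fe label, and 15 for the interaction.

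Expression of the family was uneven. The mean over the 12 libraries was at least 100 FPKM for 4 loci, between 10 and 100 FPKM for 19 and below 10 FPKM for 23. At least 1 FPKM was reached in all 12 libraries by 31 loci. PRXR1 (AT4G21960, chr4:11646174-11648462 in TAIR10) alone held 42.5 to 58.8% of the summed FPKM of the 46 loci in a library. That sum was 3935 ± 372 FPKM in pad4 labelled −Fe, 2677 ± 22.1 in WT labelled −Fe, 1758.5 ± 70.7 in pad4 labelled +Fe and 2067 ± 89.4 in WT labelled +Fe (SD, n = 3 each). Without PRXR1 the sums were 1709 ± 90.7 FPKM in pad4 labelled −Fe, 1465 ± 63.5 in WT labelled −Fe, 797 ± 10.02 in pad4 labelled +Fe and 882 ± 12.8 in WT labelled +Fe (SD, n = 3 each). In both sums the libraries labelled −Fe lay above all libraries labelled +Fe, and pad4 was above WT under the −Fe label and below it under the +Fe label.

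Another 26 annotated loci stayed below the floor. The files listed 4 of them at 0 in all 12 libraries, and 4 reached 1 FPKM in 1 or 2 libraries. Among the loci below the floor were PRX2 and PRX25, both known from work on stem lignin. Just outside the floor, the third highest library was at 0.81 FPKM for AT4G26010, 0.88 for AT5G15180, 0.90 for AT1G30870 and 0.93 for PRX25. Just inside it, that library was at 1.03 FPKM for AT5G06730, 1.08 for AT5G58400, 1.17 for AT1G44970 and 1.32 for AT5G17820. Because the rule used levels, 9 of the 46 loci passed only through libraries of 1 Fe label. These were AT2G18980, AT3G49960, AT4G08780, AT4G30170, AT5G17820 and RHS19 under −Fe, and AT1G44970, AT5G58400 and PER64 under +Fe. The rule favoured a difference between the labels for them, so the counts below describe the 46 loci and support no statement about the family.

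**Figure D1:**
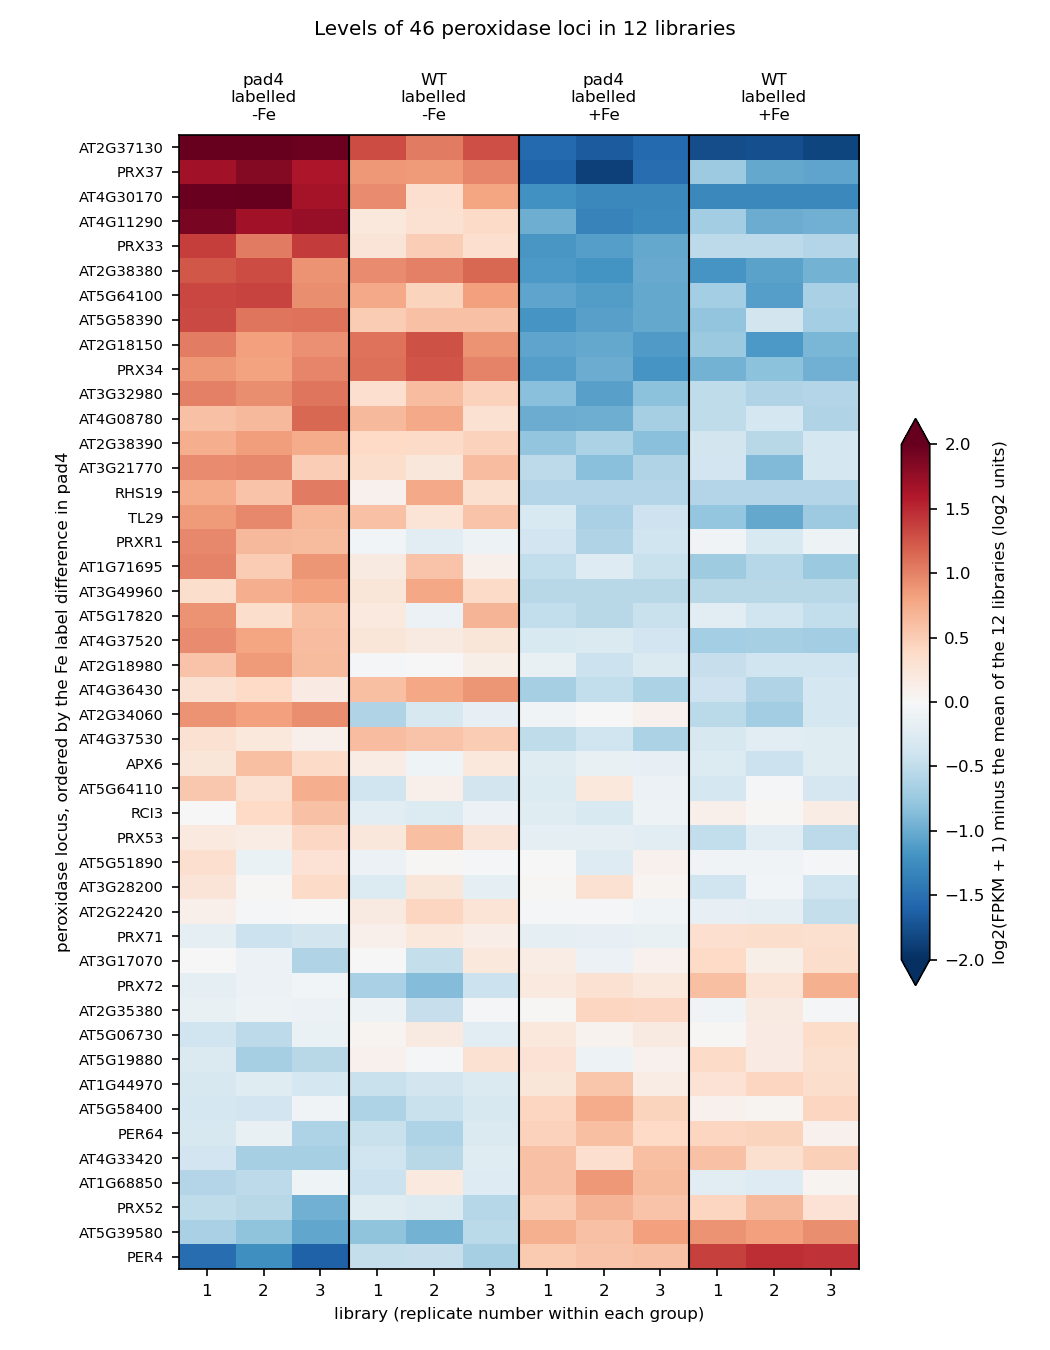
Heat map of the 46 peroxidase loci (rows, ordered by the Fe label difference in pad4) in the 12 libraries (columns, 3 for each group). Colour is log2(FPKM + 1) minus the mean of the locus over the 12 libraries, in log2 units. AT2G37130 at the top is high in the libraries labelled −Fe, above all in pad4, and PER4 at the bottom is lowest in pad4 labelled −Fe and highest in WT labelled +Fe.

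The first question is how the family stood in libraries labelled −Fe against those labelled +Fe. In pad4, 41 of the 46 loci passed the test, 29 of them higher and 12 lower under the −Fe label, and in WT 35 passed, 26 higher and 9 lower. Over all 20173 loci tested, 57.4% were called in pad4 (26.3% higher, 31% lower) and 51.9% in WT (25.2% higher, 26.7% lower), against which the 89.1% of the peroxidase loci in pad4 and the 76.1% in WT are to be read. The median log2 difference of the 46 loci was 0.88 in pad4, against -0.05 over all loci tested, and 0.60 in WT, against -0.02. Leaving out the 3 loci that the files list at 0 throughout a group, the medians of the others were 0.72 in pad4 and 0.44 in WT. These medians still hold AT2G18980, AT4G08780, AT5G17820, AT1G44970, AT5G58400 and PER64, which also passed the rule through libraries of 1 Fe label only. In both genotypes 25 loci were higher and 8 were lower, and AT3G17070, AT3G28200 and AT5G51890 were not called in either. The 25 include the 6 loci that passed the rule only through libraries labelled −Fe. The 8 include the 3 that passed only through libraries labelled +Fe. The shares of called peroxidase loci above thus hold loci for which the rule favoured the call. The test was limma on log2(FPKM + 1) with Benjamini-Hochberg adjustment over all loci tested and a threshold of 0.05, and all differences below are on that scale.

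Among the wall peroxidases of the oxidative burst, PRX33 and PRX34 are close neighbours that produce apoplastic hydrogen peroxide after elicitors. PRX34 (AT3G49120, chr3:18207651-18210132) stood at 318, 304 and 341 FPKM in pad4 and 372, 415 and 348 FPKM in WT labelled −Fe, against 80.2, 86.8 and 76.3 FPKM in pad4 and 90.1, 97.9 and 88.4 FPKM in WT labelled +Fe. The label separated the libraries completely. PRX34 was higher under the −Fe label by 1.97 ± 0.083 log2 units in pad4 (adjusted p = 6.57e-09) and by 2.02 ± 0.083 in WT (SE; adjusted p = 5.51e-09). PRX33 (AT3G49110, chr3:18200664-18203142) stood at 188, 148 and 191 FPKM in pad4 and 86.0, 101 and 90.7 FPKM in WT labelled −Fe, against 31.4, 32.7 and 34.5 FPKM in pad4 and 49.2, 49.5 and 47.5 FPKM in WT labelled +Fe. Its 4 groups did not overlap, and pad4 held both the highest and the lowest of them. PRX33 was higher under the −Fe label by 2.37 ± 0.098 log2 units in pad4 (adjusted p = 5.83e-09) and by 0.91 ± 0.098 in WT (adjusted p = 1.42e-05).

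Of the peroxidases tied to wall stiffening and growth, PRX37, whose overexpression dwarfs plants, followed the same direction and PRX71, which restricts cell expansion, did not. PRX37 (AT4G08770, chr4:5598115-5600312) stood at 42.5, 47.7 and 40.6 FPKM in pad4 and 23.8, 23.6 and 25.7 FPKM in WT labelled −Fe, against 3.48, 2.73 and 3.72 FPKM in pad4 and 7.2, 5.72 and 5.53 FPKM in WT labelled +Fe. It was higher under the −Fe label by 3.38 ± 0.112 log2 units in pad4 (adjusted p = 9.83e-10) and by 1.83 ± 0.112 in WT (adjusted p = 1.45e-07). PRX71 (AT5G64120, chr5:25659306-25661002) stood at 191, 161 and 168 FPKM in pad4 and 232, 251 and 237 FPKM in WT labelled −Fe, against 191, 194 and 197 FPKM in pad4 and 275, 278 and 270 FPKM in WT labelled +Fe. Its Fe label difference was small, -0.16 ± 0.069 in pad4 (adjusted p = 0.0619) and -0.19 ± 0.069 in WT (adjusted p = 0.0346). The call in WT was lost when any WT library other than labelled −Fe replicate 2 was left out, with differences of -0.21 to -0.17 and adjusted p up to 0.11.

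Lower levels under the −Fe label were found for PER4, PRX52, PRX72 and PER64, which form no list of their own and were grouped here with their values known. PER4, PRX52 and PRX72 are tied to lignin of the stem, and PER64 to the lignin of the Casparian strip, the barrier ring of the root endodermis, and each of the 4 was lower in both genotypes. The 4 do not stand for lignin peroxidases as a class. Others of the 16 peroxidases with a known role, among them PRX53 and AT2G22420 (PRX17), were called higher in WT. PER4 (AT1G14540, chr1:4974067-4975705) stood at 3.95, 5.12 and 3.65 FPKM in pad4 and 9.29, 9.40 and 8.04 FPKM in WT labelled −Fe, against 19.6, 20.3 and 20.4 FPKM in pad4 and 36.0, 38.7 and 38.0 FPKM in WT labelled +Fe. Its 4 groups did not overlap, in that order from low to high. PER4 fell by 2.02 ± 0.1 log2 units in pad4 (adjusted p = 2.48e-08) and by 1.96 ± 0.1 in WT (adjusted p = 3e-08).

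PRX52 (AT5G05340) averaged 1.15 ± 0.351 FPKM in pad4 and 1.66 ± 0.31 FPKM in WT labelled −Fe, against 4.10 ± 0.312 FPKM in pad4 and 3.69 ± 0.591 FPKM in WT labelled +Fe (SD, n = 3 each). Its difference was -1.26 ± 0.144 in pad4 (adjusted p = 2.16e-05) and -0.82 ± 0.144 in WT (adjusted p = 0.000588). PRX72 (AT5G66390) stood at 1.76, 1.91 and 2.02 FPKM in pad4 and 1.01, 0.715 and 1.32 FPKM in WT labelled −Fe, against 2.58, 2.89 and 2.64 FPKM in pad4 and 3.76, 2.82 and 4.15 FPKM in WT labelled +Fe. The libraries labelled −Fe all lay below those labelled +Fe, with WT at both ends. PRX72 differed by -0.35 ± 0.134 in pad4 (adjusted p = 0.0412) and by -1.18 ± 0.134 in WT (adjusted p = 2.07e-05), and the call in pad4 ended when any single pad4 library was left out (adjusted p up to 0.112). That call in pad4 also ended with 0.1 added instead of 1 and with quantile normalization.

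PER64 (AT5G42180) was close to the floor, at 0.46, 0.63 and 0.19 FPKM in pad4 and 0.34, 0.18 and 0.48 FPKM in WT labelled −Fe, against 1.49, 1.76 and 1.41 FPKM in pad4 and 1.44, 1.48 and 0.94 FPKM in WT labelled +Fe. The label separated all libraries, and PER64 had passed the rule only through libraries labelled +Fe. The sum of 7 endodermis markers, which include the Casparian strip proteins CASP1 to CASP5, was 2.47 to 5.21 FPKM in pad4 and 1.27 to 2.39 FPKM in WT labelled −Fe, against 3.88 to 5.33 FPKM in pad4 and 5.51 to 6.24 FPKM in WT labelled +Fe. These 7 belong to a list of 18 root markers and were set apart with values known. Only CASP1 and CASP4 of them passed the filter. CASP4, which reached 1 FPKM only in libraries labelled +Fe, differed by -1.09 ± 0.18 log2 units in pad4 and -1.47 ± 0.18 in WT. CASP1, called in neither genotype, differed by 0.46 ± 0.232 and -0.41 ± 0.232. The part of these markers in the PER64 values was not tested, and in tissue of many cell types fewer cells of a type and less RNA per cell cannot be told apart.

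Adding 1 makes the differences of low loci too small, so the rank that follows holds on the log2(FPKM + 1) scale only. Among loci without a gene name in RefSeq, AT2G37130 (also called PRX21, chr2:15597921-15600077) had the largest fitted difference of the 46 loci in each genotype on that scale. It stood at 165, 158 and 130 FPKM in pad4 and 81.6, 68.3 and 81.0 FPKM in WT labelled −Fe, against 10.4, 9.62 and 10.4 FPKM in pad4 and 8.87, 8.95 and 8.40 FPKM in WT labelled +Fe. AT2G37130 was higher under the −Fe label by 3.76 ± 0.096 log2 units in pad4 (adjusted p = 1.11e-10) and by 3.0 ± 0.096 in WT (adjusted p = 7.07e-10). AT2G38380 and AT2G18150 were also higher, by 2.27 ± 0.117 and 2.00 ± 0.122 in pad4 and by 2.1 ± 0.117 and 2.02 ± 0.122 in WT. AT5G39580 (also called PRX62) was lower, at 11.9, 10.5 and 8.82 FPKM in pad4 and 10.5, 9.51 and 12.9 FPKM in WT labelled −Fe, against 32.1, 29.4 and 34.5 FPKM in pad4 and 36.7, 34.5 and 37.4 FPKM in WT labelled +Fe. The genotypes overlapped under each label and the Fe labels did not. AT5G39580 differed by -1.54 ± 0.119 in pad4 and -1.64 ± 0.119 in WT, and AT4G33420 by -1.08 ± 0.118 and -0.85 ± 0.118.

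AT1G71695, which is among the 4 loci above 100 FPKM on average, stood at 215, 154 and 201 FPKM in pad4 and 123, 162 and 116 FPKM in WT labelled −Fe, against 76.3, 90.3 and 78.9 FPKM in pad4 and 65.5, 72.9 and 64.1 FPKM in WT labelled +Fe. The labels did not overlap and the genotypes overlapped under the −Fe label. AT1G71695 was higher under the −Fe label by 1.2 ± 0.144 in pad4 (adjusted p = 3.17e-05) and 0.96 ± 0.144 in WT (adjusted p = 0.000181). AT5G58390 stood at 47.4, 40.0 and 40.2 FPKM in pad4 and 26.5, 28.1 and 28.2 FPKM in WT labelled −Fe, against 7.57, 8.15 and 8.53 FPKM in pad4 and 10.2, 14.0 and 11.1 FPKM in WT labelled +Fe. AT3G32980 stood at 39.2, 37.1 and 41.2 FPKM in pad4 and 24.2, 29.8 and 26.6 FPKM in WT labelled −Fe, against 10.2, 8.44 and 10.4 FPKM in pad4 and 13.0, 12.1 and 12.4 FPKM in WT labelled +Fe. In both loci the 4 groups did not overlap, and pad4 was the highest of them under the −Fe label and the lowest under the +Fe label.

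The other loci called higher in both genotypes were AT4G11290 (2.96 in pad4 and 1.19 in WT), AT3G32980 (1.92 and 1.04), AT5G64100 (2.27 and 1.48), AT4G08780 (1.67 and 1.06), AT2G38390 (1.52 and 0.84), AT3G21770 (1.46 and 0.94), AT5G17820 (1.11 and 0.63), AT4G37520 (1.1 and 0.90), AT2G18980 (0.98 and 0.44), AT4G36430 (0.89 and 1.21), AT4G37530 (0.72 and 0.83) and APX6 (0.59 and 0.41), all in log2 units. The call of AT5G17820 in WT was lost without WT labelled −Fe replicate 3 (0.41, adjusted p = 0.0734) or WT labelled +Fe replicate 3 (0.57, adjusted p = 0.0603). AT1G44970 and AT5G58400 were lower in both genotypes and passed only through libraries labelled +Fe. AT2G34060, AT5G64110, PRXR1 and RCI3 were called higher in pad4 and not called in WT, and AT1G68850, AT2G35380, AT5G06730 and AT5G19880 were called lower in pad4 and not called in WT. Of these 8 loci, the interaction below was called for AT1G68850, AT2G34060, PRXR1 and RCI3. AT2G22420 was called higher in WT, by 0.57 ± 0.095 (adjusted p = 0.000402), and its difference in pad4 was 0.07 ± 0.095 (adjusted p = 0.56). The call of AT2G35380 in pad4, at -0.41 ± 0.145 (adjusted p = 0.0295), was lost without any pad4 library other than labelled +Fe replicate 1 (adjusted p up to 0.101).

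Another 3 loci were at or near 0 in the libraries labelled +Fe. RHS19 (AT5G67400), a peroxidase named for its root hair expression, stood at 1.53, 1.24 and 2.098 FPKM in pad4 and 0.60, 1.54 and 0.88 FPKM in WT labelled −Fe, and was listed at 0 in all 6 libraries labelled +Fe. AT3G49960 stood at 0.87, 1.42 and 1.54 FPKM in pad4 and 0.73, 1.504 and 0.90 FPKM in WT labelled −Fe, and was likewise listed at 0 under the +Fe label. AT4G30170 stood at 8.67, 8.77 and 6.78 FPKM in pad4 and 3.72, 2.09 and 3.23 FPKM in WT labelled −Fe, against 0.056, 0 and 0 FPKM in pad4 labelled +Fe and 0 throughout WT labelled +Fe. No fold is given against groups listed at 0. The 3 loci passed the rule only through libraries labelled −Fe.

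The sum of 7 root hair markers (COBL9, RHD6, RSL4, EXPA7, EXPA18, LRX1 and PRP3) moved with these 3 loci, at 3.22 to 3.69 FPKM in pad4 and 1.33 to 2.03 FPKM in WT labelled −Fe, against 0.081 to 0.15 FPKM in pad4 and 0 to 0.060 FPKM in WT labelled +Fe. None of the 7 was at 0 in all 3 libraries of a group labelled −Fe, against 2 in pad4 and 4 in WT labelled +Fe. PRP3 was the largest part of the sum under the −Fe label, at 2.06, 2.31 and 2.45 FPKM in pad4 and 0.55, 0.78 and 1.08 FPKM in WT. Of the 7 only PRP3 passed the filter, and it reached 1 FPKM only in libraries labelled −Fe. The 7 are the root hair genes of a list of 18 root markers and were set apart after their values were seen. The whole list, led by PYK10, summed to 438 to 494 FPKM in pad4 and 298 to 323 FPKM in WT labelled −Fe, against 292 to 299 FPKM in pad4 and 298 to 305 FPKM in WT labelled +Fe. The other 17 markers without PYK10 summed to 7.94 to 10.24 FPKM in pad4 and 4.46 to 6.51 FPKM in WT labelled −Fe, against 5.099 to 6.35 FPKM in pad4 and 5.99 to 6.99 FPKM in WT labelled +Fe, so that in WT they were not above the +Fe range under the −Fe label. Shoot markers, of which 3 of 5 could be used, were present throughout and also moved with the label. They summed to 18820 to 25240 FPKM in pad4 and 14710 to 19540 FPKM in WT labelled −Fe, against 9156 to 11300 FPKM in pad4 and 8941 to 10850 FPKM in WT labelled +Fe, with no overlap between the labels and overlap between the genotypes. The part of these tissues in the peroxidase values was not tested.

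**Figure D2:**
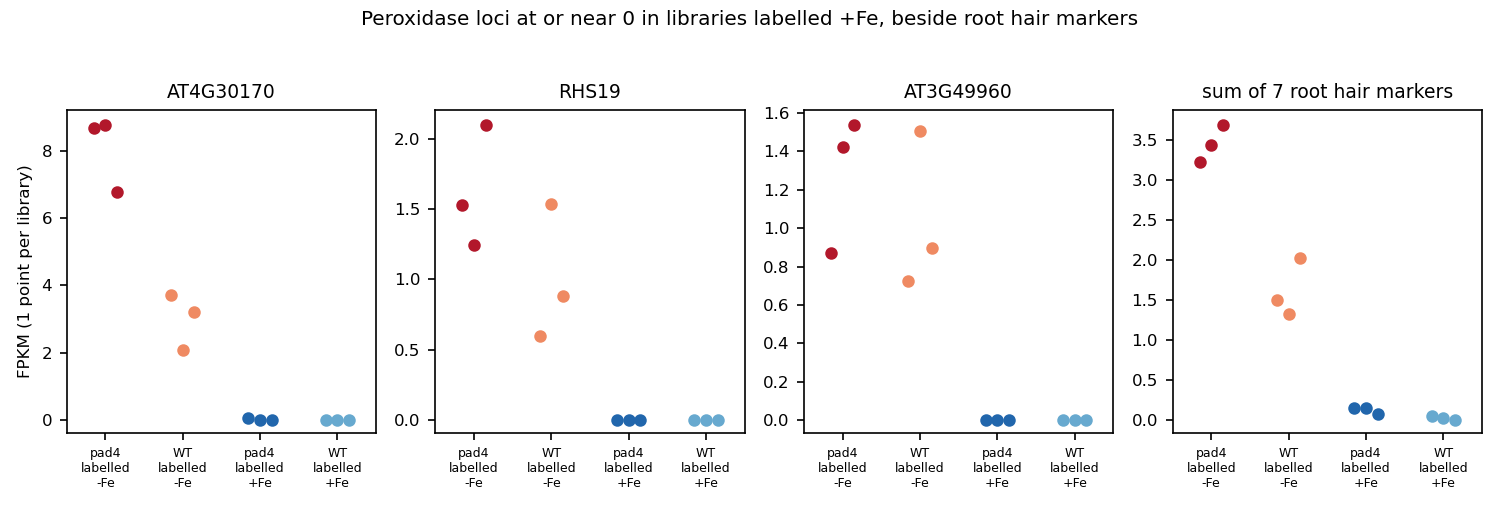
FPKM of AT4G30170, RHS19 and AT3G49960, and the summed FPKM of 7 root hair markers, in each library (1 point per library, 3 per group). All 4 panels are at or near 0 in the 6 libraries labelled +Fe, and AT4G30170 and the marker sum are higher in pad4 than in WT under the −Fe label. PRP3 is the largest part of the marker sum under the −Fe label.

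PRXR1 differed between the genotypes in its response to the label. PRXR1 stood at 2560, 2079 and 2039 FPKM in pad4 labelled −Fe, 1273, 1135 and 1227 FPKM in WT labelled −Fe, 1015, 870 and 1000 FPKM in pad4 labelled +Fe and 1255, 1070 and 1231 FPKM in WT labelled +Fe. The libraries of pad4 labelled −Fe lay above all others, and the WT libraries of the 2 labels overlapped. PRXR1 was higher under the −Fe label by 1.21 ± 0.113 log2 units in pad4 (adjusted p = 4.44e-06), and its difference in WT was 0.03 ± 0.113 (adjusted p = 0.822). RCI3, a cold-inducible peroxidase, was higher in pad4 by 0.55 ± 0.135 (adjusted p = 0.00499) and differed in WT by -0.30 ± 0.135 (adjusted p = 0.0879). Without the 4 libraries that deviated together its difference in pad4 was 0.38 (adjusted p = 0.0679). PRX53 was higher in both genotypes, by 0.44 ± 0.125 in pad4 (adjusted p = 0.0109) and 0.77 ± 0.125 in WT (adjusted p = 0.000323). The ascorbate peroxidase-like TL29 of the thylakoid lumen was higher by 1.28 ± 0.124 in pad4 and 1.32 ± 0.124 in WT.

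**Figure D3:**
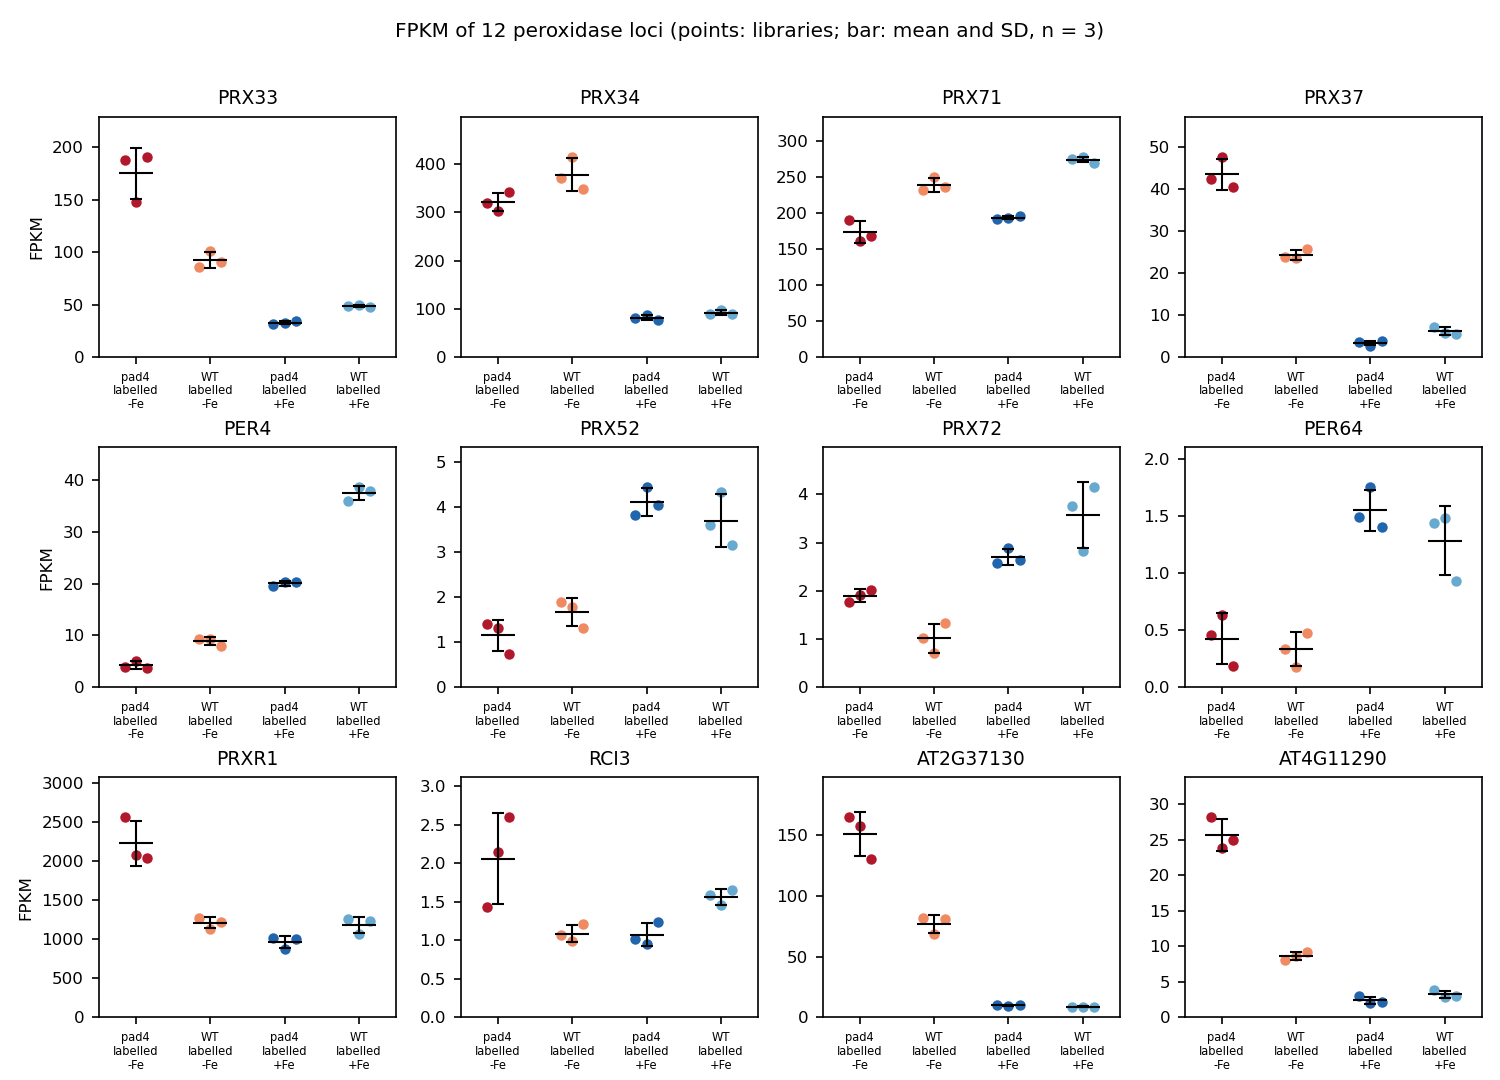
FPKM of 12 peroxidase loci in each library of pad4 labelled −Fe, WT labelled −Fe, pad4 labelled +Fe and WT labelled +Fe (points: libraries; horizontal bar and error bar: mean and SD, n = 3). PRX33, PRX34, PRX37, AT2G37130 and AT4G11290 are high under the −Fe label, PER4, PRX52, PRX72 and PER64 are low there, and the libraries of PRXR1 are highest in pad4 labelled −Fe.

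The next question is how pad4 differed from WT under each label. Under the −Fe label 23 of the 46 loci passed the test, 18 higher and 5 lower in pad4, and under the +Fe label 10 passed, 3 higher and 7 lower. Over all loci tested, 27.9% were called under the −Fe label (13.5% higher, 14.4% lower) and 9.35% under the +Fe label (3.69% higher, 5.66% lower). The median log2 difference of the 46 loci was 0.25 under the −Fe label, against 0.01 over all loci, and -0.05 under the +Fe label, against 0.01. PER4 and PRX71 were lower in pad4 under both labels, AT2G34060 and AT4G37520 were higher under both, and 22 loci were called under neither. PRX33, PRX37, AT2G38390, AT3G32980 and AT5G58390 were higher in pad4 under the −Fe label and lower in pad4 under the +Fe label. Of the 10 calls under the +Fe label 5 remained without WT labelled +Fe replicate 1.

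Calls under the +Fe label were close to the threshold for most of these loci. AT3G32980, at -0.35 ± 0.093 (adjusted p = 0.039), lost its call when any of the 6 libraries labelled +Fe was left out (adjusted p up to 0.146). AT2G38390, at -0.33 ± 0.085 (adjusted p = 0.0357), lost it without replicate 1 or 3 of either genotype (adjusted p up to 0.143). AT5G58390, at -0.48 ± 0.107 (adjusted p = 0.0158), lost it without pad4 replicate 1 (adjusted p = 0.0615). AT4G37520, at 0.36 ± 0.077 (adjusted p = 0.0129), lost it without WT replicate 1 or 3 (adjusted p up to 0.0552).

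PER4 fell in pad4 by 0.93 ± 0.1 log2 units under the −Fe label (adjusted p = 3.93e-05) and by 0.87 ± 0.1 under the +Fe label (adjusted p = 0.000337). PRX71 fell by 0.47 ± 0.069 under the −Fe label (adjusted p = 0.000404) and by 0.50 ± 0.069 under the +Fe label (adjusted p = 0.00117). In each of these 2 genes every pad4 library lay below every WT library of the same label. PRX34 differed by -0.23 ± 0.083 (adjusted p = 0.0576) and -0.18 ± 0.083 (adjusted p = 0.213), and was thus called in neither comparison. Its difference under the −Fe label became a call without pad4 replicate 3 (-0.28, adjusted p = 0.0451), without WT replicate 3 (-0.29, adjusted p = 0.0381) and without the 4 libraries that deviated together (-0.21, adjusted p = 0.0292).

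Under the −Fe label the rises in pad4 were led by AT4G11290 (chr4:6869953-6871661), at 28.1, 23.8 and 25.0 FPKM in pad4 against 8.05, 8.66 and 9.16 FPKM in WT. AT4G11290 was higher in pad4 by 1.47 ± 0.118 log2 units (adjusted p = 3.89e-06), and under the +Fe label it differed by -0.31 ± 0.118 (adjusted p = 0.136). AT2G34060 stood at 8.26, 7.81 and 8.51 FPKM in pad4 against 2.27, 2.99 and 3.47 FPKM in WT under the −Fe label, a difference of 1.25 ± 0.123 (adjusted p = 1.96e-05). Under the +Fe label AT2G34060 stood at 3.76, 3.97 and 4.28 FPKM in pad4 against 2.43, 2.08 and 2.92 FPKM in WT, a difference of 0.53 ± 0.123 (adjusted p = 0.0198). The +Fe call of AT2G34060 ended when pad4 replicate 2 or 3 or WT replicate 1 or 2 was left out (adjusted p up to 0.0769), and its adjusted p was 0.0959 without the 4 libraries that deviated together. AT4G30170 was higher in pad4 by 1.19 ± 0.149 (adjusted p = 0.000119) and AT2G37130 by 0.96 ± 0.096 (adjusted p = 2.19e-05) under the −Fe label. Neither was called under the +Fe label.

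PRX33 was higher in pad4 by 0.91 ± 0.098 log2 units under the −Fe label (adjusted p = 3.99e-05), and it fell by 0.55 ± 0.098 under the +Fe label (adjusted p = 0.00485). PRX37 was higher by 0.81 ± 0.112 under the −Fe label (adjusted p = 0.000251) and fell by 0.73 ± 0.112 under the +Fe label (adjusted p = 0.00224). PRXR1 was higher in pad4 by 0.87 ± 0.113 under the −Fe label (adjusted p = 0.00016) and differed by -0.30 ± 0.113 under the +Fe label (adjusted p = 0.132). PRX72 was higher by 0.53 ± 0.134 under the −Fe label (adjusted p = 0.0113). RCI3 was higher by 0.53 ± 0.135 (adjusted p = 0.0119), and without the 4 libraries that deviated together the difference was 0.37 (adjusted p = 0.112). AT4G36430, AT4G37530 and AT5G19880 were lower in pad4 under the −Fe label, by differences of -0.46 ± 0.105, -0.36 ± 0.078 and -0.62 ± 0.142. AT1G68850 was the only locus called under the +Fe label alone, higher in pad4 by 0.83 ± 0.18 (adjusted p = 0.0141). The call of AT1G68850 ended without pad4 replicate 2 or without WT replicate 1 (adjusted p up to 0.0599).

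**Figure D4:**
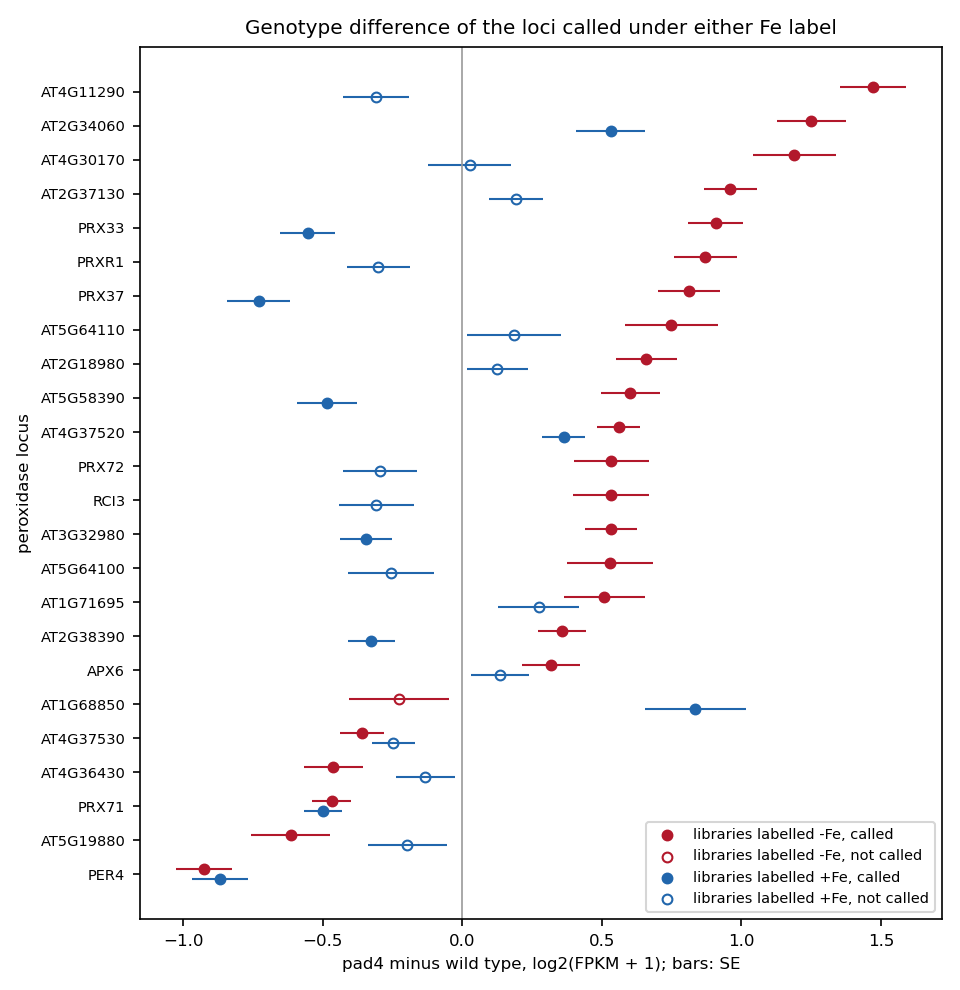
Differences of pad4 minus WT in log2(FPKM + 1), with SE bars, for the 24 peroxidase loci called under either label (red, libraries labelled −Fe; blue, libraries labelled +Fe; filled points are called). PER4 and PRX71 lie left of 0 under both labels, and PRX33 and PRX37 lie right of 0 under the −Fe label and left of it under the +Fe label.

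The interaction asked whether the Fe label difference itself differed between pad4 and WT. It passed the test for 16 of the 46 loci, with a signed difference that was higher in pad4 for 14 and lower for 2, against 14.7% of all loci tested (7.07% higher, 7.58% lower). The median over the 46 loci was 0.18 log2 units, against -0.01 over all loci. This contrast uses the same 12 libraries as those above and is no separate support for them. The called interactions were largest for AT4G11290, at 1.78 ± 0.167 (adjusted p = 3.58e-05), PRX37, at 1.54 ± 0.159 (adjusted p = 7.51e-05), and PRX33, at 1.46 ± 0.139 (adjusted p = 3.94e-05). PRXR1 followed at 1.17 ± 0.16 (adjusted p = 0.000562). PRX34 had an interaction of -0.05 ± 0.117 (adjusted p = 0.816), PRX71 of 0.03 ± 0.098 (adjusted p = 0.87) and PER4 of -0.06 ± 0.141 (adjusted p = 0.832). The 2 loci whose signed difference was lower in pad4 were AT1G68850, at -1.06 ± 0.255 (adjusted p = 0.0168), and AT2G22420, at -0.50 ± 0.134 (adjusted p = 0.0287). The call of AT2G22420 ended when any library was left out other than pad4 labelled −Fe replicate 1 or 3, WT labelled −Fe replicate 1 and WT labelled +Fe replicate 1 or 2, with values of -0.51 to -0.40 (adjusted p up to 0.0639 among these).

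**Figure D5:**
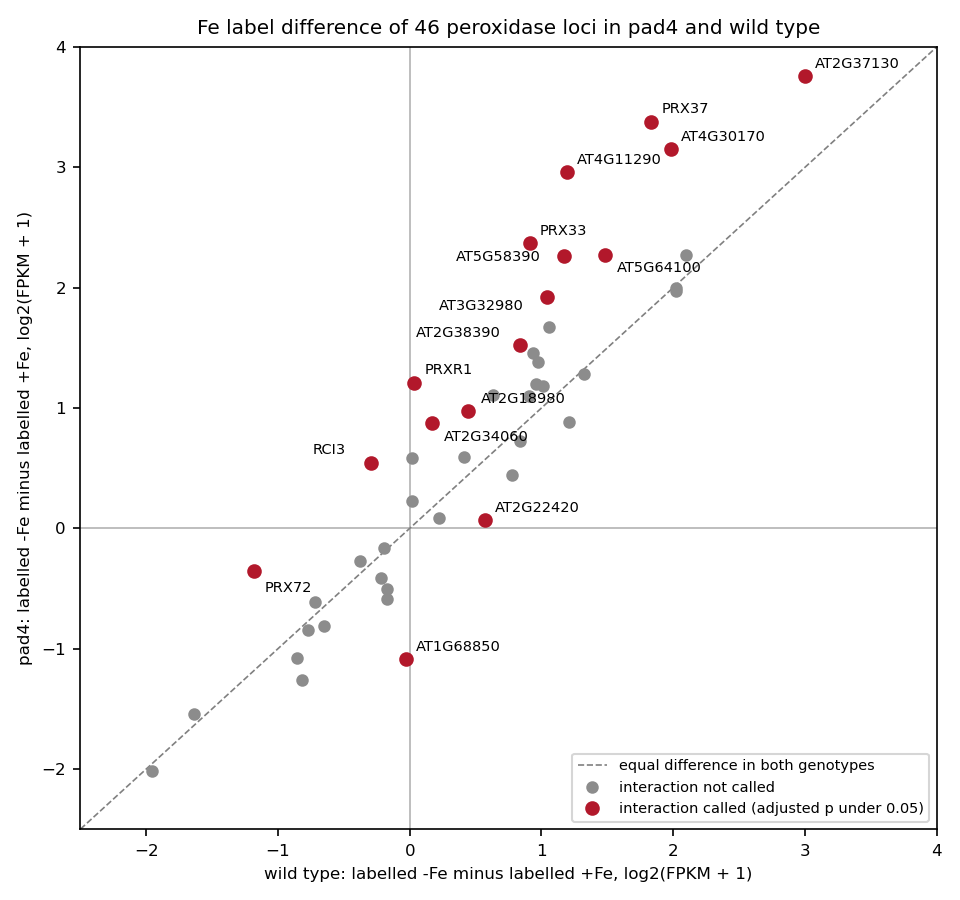
The Fe label difference (labelled −Fe minus labelled +Fe, log2(FPKM + 1)) of the 46 peroxidase loci in pad4 (vertical axis) and WT (horizontal axis), with called interactions in red and a dashed line of equal difference. AT4G11290, PRX37, PRX33 and PRXR1 lie above the line, and AT1G68850 and AT2G22420 below it.

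Loci that lie side by side did not always share their values. Within 10 kb of each other lay 13 pairs of annotated loci, and in 8 pairs both had passed the rule. PRX33 and PRX34, with 4508 bases between them, had interactions of 1.46 and -0.05. AT4G37520 and AT4G37530, 1534 bases apart, were both higher under the −Fe label, whereas under that label AT4G37520 was higher in pad4 by 0.56 ± 0.077 (adjusted p = 0.000239) and AT4G37530 differed by -0.36 ± 0.078 (adjusted p = 0.00483). AT5G58390 was higher under the −Fe label, by 2.26 ± 0.107 in pad4 and 1.17 ± 0.107 in WT, and its neighbour AT5G58400, which passed the rule only through libraries labelled +Fe, was at -0.81 ± 0.149 and -0.65 ± 0.149. PRX53 was higher under the −Fe label in both genotypes. Its neighbour AT5G06730, close to the floor, differed by -0.50 ± 0.143 in pad4 and by -0.18 ± 0.143 in WT, the latter not called. In pad4 AT5G64110 was higher by 0.58 ± 0.168, and its neighbour PRX71 differed by -0.165 ± 0.069, which was not called. In some other pairs both loci shared their direction. AT2G38380 and AT2G38390 were both higher under the −Fe label in both genotypes, as were PRX37 and AT4G08780, the last of which passed only through libraries labelled −Fe. The differences between neighbours were not themselves tested. Similar copies can share reads, and how the authors assigned such reads is not given in the sources used here.

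Genes that act beside the peroxidases in the wall were described by lists. The monolignol synthesis list, which supplies the lignin precursors, had 17 of 17 genes tested. In pad4, 5 were higher and 5 lower under the −Fe label (median -0.03 log2 units), and in WT 4 were higher and 6 lower (median -0.08). Over all loci tested 57.4% were called in pad4 and 51.9% in WT, so that a list with 10 of 17 called is near that background. CCR2, a cinnamoyl-CoA reductase, averaged 4.08 ± 0.604 FPKM in pad4 and 10.96 ± 2.03 FPKM in WT labelled −Fe, against 31.7 ± 2.03 FPKM in pad4 and 36.6 ± 4.14 FPKM in WT labelled +Fe (SD, n = 3 each). CCR2 differed between the labels by -2.69 ± 0.13 log2 units in pad4 (adjusted p = 1.95e-08) and by -1.66 ± 0.13 in WT (adjusted p = 1.05e-06), and its interaction was -1.03 ± 0.184 (adjusted p = 0.00325). COMT1, a methyltransferase of the pathway, was higher by 0.60 ± 0.057 in pad4 and 0.49 ± 0.057 in WT. Between genotypes, 1 gene was higher and 6 were lower in pad4 under the −Fe label (median -0.20), and 8 were lower and none higher under the +Fe label (median -0.24). Over all loci tested 14.4% were lower under the −Fe label and 5.66% under the +Fe label. PAL1, which opens the pathway, fell in pad4 by 1.02 ± 0.112 under the −Fe label (adjusted p = 4.61e-05), and under the +Fe label the difference was -0.89 ± 0.112 (adjusted p = 0.000646).

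Laccases, which also oxidise monolignols in the wall, passed the filter in 8 of 16 genes found. In pad4, 6 of the 8 were higher under the −Fe label and none lower (median 0.63), and in WT 5 were higher and none lower (median 0.50). Over all loci tested 26.3% were higher in pad4 and 25.2% in WT. LAC3 was higher by 0.96 ± 0.087 in pad4 (adjusted p = 3.31e-06) and 0.70 ± 0.087 in WT (adjusted p = 4.54e-05). LAC1 was higher by 0.79 ± 0.114 in pad4 and 0.56 ± 0.114 in WT, but reached 1 FPKM only in libraries labelled −Fe, so that the filter favoured this direction for it and for the counts it enters. LAC8 and LAC4 were higher in pad4 under the −Fe label, by 0.91 ± 0.123 (adjusted p = 0.000209) and 0.42 ± 0.114 (adjusted p = 0.0164). The call of LAC4 ended without pad4 labelled −Fe replicate 1 or 3, without WT labelled −Fe replicate 3 and without the 4 libraries that deviated together (adjusted p up to 0.113).

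The RBOH NADPH oxidases, which make the superoxide from which apoplastic hydrogen peroxide arises, passed the filter in 4 of 10 genes, and all 4 were lower under the −Fe label in both genotypes (median -0.75 in pad4 and -1.14 in WT), against 31% and 26.7% of all loci tested. RBOHC and RBOHG reached 1 FPKM only in libraries labelled +Fe, so that for them the filter itself favoured this direction. RBOHD, the main oxidase of the immune burst, fell by 0.45 ± 0.067 log2 units in pad4 (adjusted p = 0.000181) and by 1.39 ± 0.067 in WT (adjusted p = 2.05e-08), with an interaction of 0.94 ± 0.095 (adjusted p = 6.36e-05). Under the −Fe label RBOHD was higher in pad4 by 0.73 ± 0.067 (adjusted p = 1.2e-05). RBOHF was instead lower in pad4 there, at -0.31 ± 0.075 (adjusted p = 0.00864). The RBOHF call ended with only the groups compared (adjusted p = 0.0699). Under the +Fe label only RBOHG was called between genotypes, at -0.455 ± 0.102 (adjusted p = 0.0169). That call ended in 5 refits (adjusted p up to 0.226). Between the labels RBOHG differed by -0.96 ± 0.102 in pad4 and -1.43 ± 0.102 in WT, and RBOHF by -1.02 ± 0.075 and -0.89 ± 0.075.

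The authors' deposited tables compare the groups in pairs with their own test, and give a q-value for each locus. At a q-value under 0.05 the authors' deposited tables called 38 of the 46 loci for the Fe label in pad4 and 33 in WT, against 52.7% and 48.3% of the loci they tested. For pad4 against WT the authors' deposited tables called 21 of 43 loci tested there under the −Fe label and 10 of 41 under the +Fe label, against 22.3% and 13% of the loci they tested. The calls shared with limma numbered 38 for the Fe label in pad4 (92.7% of the limma calls, 100% of the authors'), 32 in WT (91.4% and 97%), 20 under the −Fe label (87% and 95.2%) and 9 under the +Fe label (90% and 90%). Each shared call had the same direction.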

How the data were processed

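The deposited table holds FPKM for 28693 loci, which the authors computed before deposit. The submitters' processing notes name TAIR10. For the aligner and the counting tool, no name is given in the sources used here. Group comparisons with a log2 fold, a p-value and a q-value were deposited by the authors in 4 further tables, per the file headers, and only their calls were used here. A test score that those files also hold, per the file headers, stayed unused.

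The 20173 loci that reached 1 FPKM in 3 or more of 12 libraries entered a limma fit (version 3.58.1, R 4.3.3) of log2(FPKM + 1) with moderated variances that follow a trend, 1 mean per group and Benjamini-Hochberg adjustment. Adding 1 makes the differences of low genes too small. The procedure was tested on simulated data. A value of 0 can be a failed estimate, so genes are said to be listed at 0. Gene names come from RefSeq (TAIR10.1), in which all 46 loci matched. Loci were placed by the coordinates of the files.

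The peroxidase loci, the gene lists and the tests were chosen with earlier results of these data known. Genes were named by a rule. It takes, per contrast, the 4 largest rises and falls among called peroxidase loci with at least 5 FPKM in the higher group, 16 peroxidases with a known role, the 3 with the highest mean, and up to 2 called genes per list. Further loci were named after their values were seen: those near the floor, those called only under 1 label or genotype, and the remaining loci that the text lists, among them TL29, RHS19, AT3G49960, AT1G71695, AT3G32980 and AT5G58390 with AT5G58400. LAC5, which stands in 2 rows, was left out, and 2 shoot markers stand in loci that merge genes.

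Alternatives were no filter, a filter at 5 FPKM, an added 0.1, quantile normalization, no trend, a replicate block, only the groups compared, a threshold of 1 log2 unit, and each library left out in turn. Leaving out the 4 libraries that deviated together, or the 2 ascorbate peroxidases, was added after seeing the data.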

Additional observations from a re-analysis of the deposited data

Results flagged for a closer look

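The Fe label difference (labelled −Fe minus labelled +Fe) differed between pad4 and WT for 16 peroxidase loci, by limma's test of the interaction with Benjamini-Hochberg adjustment over all loci tested. As a signed value it was higher in pad4 for AT4G11290 by 1.78 log2 units, for PRX37 by 1.54, for PRX33 by 1.46, for PRXR1 by 1.17 and for AT5G58390 by 1.09. Smaller excesses in pad4 were 0.88 for AT3G32980, 0.77 for AT2G37130, 0.71 for AT2G34060 and 0.68 for AT2G38390. None of these 9 calls was lost in a refit.

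The excess of 1.17 for AT4G30170, which is listed at 0 throughout WT labelled +Fe, depends on the added value, and with 0.1 added it was 1.21 with an adjusted p of 0.07. RCI3 had 0.84, and 0.67 without the 4 libraries that deviated together (adjusted p = 0.0715). AT5G64100 had 0.79, and its call was lost when any of 8 libraries was left out, those of pad4 labelled +Fe, pad4 labelled −Fe replicates 1 and 2, WT labelled −Fe replicate 2 and WT labelled +Fe replicates 1 and 3 (0.67 to 0.80, adjusted p up to 0.0861). AT2G18980 had 0.53, and its call was lost when any of 8 libraries was left out, the exceptions being pad4 labelled −Fe replicates 1 and 3, WT labelled −Fe replicate 3 and pad4 labelled +Fe replicate 1. It was also lost with 0.1 added (adjusted p = 0.117), with the replicate number as a block (adjusted p = 0.0678) and without the 4 libraries that deviated together (adjusted p = 0.163).

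PRX72 had 0.83, and was lower under the −Fe label in both genotypes, by less in pad4. The signed difference was lower in pad4 for AT1G68850, by -1.06, with -1.09 in pad4 and -0.03 in WT, and for AT2G22420, by -0.50, with 0.07 in pad4 and 0.57 in WT. The adjusted p of AT2G22420 reached 0.0794 without the 4 libraries. Groups of 3 libraries were not searched for single outlying libraries.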

How the results depend on the processing

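Requiring at least 1 log2 unit left 26 loci called for the Fe label in pad4, 17 in WT, 3 for pad4 against WT under the −Fe label, 0 under the +Fe label and 7 for the interaction. With a filter at 5 FPKM, which removes loci, the Fe label in pad4 had 25. Without the 2 ascorbate peroxidases the counts were 39 for the Fe label in pad4 and 33 in WT. For pad4 against WT they were 22 under the −Fe label and 10 under the +Fe label, and for the interaction 16. The call of APX6 for pad4 against WT under the −Fe label was lost in 9 refits (0.22 to 0.34, adjusted p up to 0.152). Leaving out 1 library gave 39 to 40 for the Fe label in pad4, 33 to 35 in WT, 21 to 25 for the genotype under the −Fe label, 5 to 8 under the +Fe label and 13 to 16 for the interaction. The lowest of these for the +Fe label was the fit without WT labelled +Fe replicate 1. With the replicate number as a replicate block the counts were 41 for the Fe label in pad4, 34 in WT, 23 for the genotype under the −Fe label, 8 under the +Fe label and 15 for the interaction. Libraries with the same number formed 18 pairs whose deviations correlated by -0.42 to 0.51, and for 4 of 12 libraries the best partner had their own number, so the number was not taken as pairing.

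Differences that were not called changed sign when a library was left out. PRXR1 in WT (Fe label) then ranged from -0.04 to 0.08, and was -0.27 with quantile normalization. For pad4 against WT under the −Fe label, AT5G39580 ranged from -0.16 to 0.04, PER64 from -0.01 to 0.22 and PRX53 from -0.19 to 0.01. In the interaction, PER4 ranged from -0.17 to 0.03, PER64 from -0.18 to 0.05, PRX34 from -0.11 to 0.02 and PRX71 from -0.04 to 0.08, and PER4 was 0.05 without the 4 libraries that deviated together. The cause was not tested. Of 2539 refitted differences of named genes, 2404 kept direction and side of the threshold, 110 lost the call, 11 gained it and 14 changed sign. The depth is unknown, and loci near 1 FPKM are the least precise.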
